A study of Mus musculus with 36 samples.

Results

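Members of the fatty acid binding protein family that are studied in brain, Fabp7, Fabp5 and Fabp3, were followed through 36 RNA-seq libraries of mouse brain cells. They were chosen by name, with earlier results of these libraries known, and are 3 of the 25454 nuclear genes to which the deposited transcripts could be assigned. All 3 were among the 13580 genes that reached 1 FPKM in 2 or more libraries and were tested. The transcripts of each member were found by their position, and their FPKM (fragments per kilobase of transcript, scaled by the mapped fragments of the library) were summed per gene, so that levels may also be set side by side between genes. The rule describes the olfactory bulb against the cortex and the brainstem within each population, so that contrast is given here as a description, without a test.

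The series profiled cell populations named A, B, C, D, E and Neg, each from olfactory bulb, cortex and brainstem, which makes 3 regions. Each of the 18 groups holds 2 libraries, and what all groups share is that the labels give the strain C57/Bl6, brain tissue and astrocyte as the cell type. The labels give no age or treatment, leave the meaning of Neg and the way the populations were separated unstated, and the design text of the series speaks of cell lines. Replicates are numbered in deposited order. No label ties them to separate animals, so every p-value speaks of the spread between libraries alone, and that spread may be technical.

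Fatty acid binding proteins are small cytosolic carriers that hold a long-chain fatty acid or a related lipid inside a barrel-shaped pocket. They move their cargo between membranes, enzymes and the nucleus, where some of them hand it to nuclear receptors of the PPAR family. In brain, Fabp7, also called brain lipid binding protein, marks radial glia, young astrocytes and olfactory ensheathing glia and prefers polyunsaturated fatty acids such as docosahexaenoic acid. Fabp5, the epidermal type, is known as a carrier of fatty acids and retinoic acid to PPAR delta, and Fabp3, the heart type, is known in brain mainly from neurons.

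In GENCODE vM21 (GRCm38, the assembly of mm10), Fabp7 (ENSMUSG00000019874.11) lies on the plus strand of chromosome 10 from 57784881 to 57788450, Fabp5 (ENSMUSG00000027533.10) on the plus strand of chromosome 3 from 10012548 to 10016607, and Fabp3 (ENSMUSG00000028773.8) on the plus strand of chromosome 4 from 130308595 to 130315463. All 3 are protein coding. The deposited tables hold 1 transcript of Fabp7 with 762 bases, 1 of Fabp3 with 640 bases and 3 of Fabp5 with 953, 950 and 780 bases. The processed pseudogenes Fabp3-ps1 and Fabp5l2 have no value of their own in the gene table used here, so reads that such copies share with Fabp3 or Fabp5 could not be separated, and both levels are uncertain to that extent.

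The 250 bases before the RefSeq transcription start were found in the RefSeq promoter table (GRCm38.p6) for 2 of the 3 members, Fabp7 and Fabp3. The windows end at 57784922 and 130308737, past the GENCODE starts of 57784881 and 130308595. Both windows thus lie partly inside the gene as GENCODE places it. They are shown because Fabp7, the member whose level varied most, is a known target of nuclear factor I and of Notch signalling through RBPJ in neural progenitors, and the levels of those regulators are given further on. Capitals mark matches to an NFI site (TTGGCNNNNNGCC) or an RBPJ site (TGGGAA), searched on both strands.
Fabp7 promoter, chr10:57784673-57784922, plus strand: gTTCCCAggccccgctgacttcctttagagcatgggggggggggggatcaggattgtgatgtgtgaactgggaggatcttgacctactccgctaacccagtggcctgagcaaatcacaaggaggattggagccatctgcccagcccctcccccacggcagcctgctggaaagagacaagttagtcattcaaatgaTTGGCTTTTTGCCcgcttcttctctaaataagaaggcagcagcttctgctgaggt
Fabp3 promoter, chr4:130308488-130308737, plus strand: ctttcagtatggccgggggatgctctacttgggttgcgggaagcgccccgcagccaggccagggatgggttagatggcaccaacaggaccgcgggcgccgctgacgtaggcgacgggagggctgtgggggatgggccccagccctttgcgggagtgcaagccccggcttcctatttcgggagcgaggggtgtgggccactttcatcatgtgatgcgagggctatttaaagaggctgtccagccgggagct
The Fabp7 window held 1 NFI match on the plus strand, at positions -55 to -43, where -1 is the base before the RefSeq start, and 1 RBPJ match on the minus strand, at positions -249 to -244. The matches did not overlap. Of 32851 promoter windows of this length, 1.22% held an NFI match and 21.6% an RBPJ match. Neither window held a SOX site (ACAAAG, in 16.5% of windows) or a PPAR direct repeat (AGGTCANAGGTCA, in 0.0335%), and the Fabp3 window held none of the 4 motifs. A match describes letters only and is not shown to be bound.

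Before any level is given, 2 libraries need a remark because they went against their labels. Over 13579 genes, with Fabp7 left out, the library labelled brainstem D replicate 2 had a Pearson correlation of 0.74 and 0.71 with the olfactory bulb D libraries, against 0.64 with brainstem D replicate 1 and 0.65 and 0.49 with the cortex D libraries. The library labelled cortex E replicate 2 had 0.66 and 0.73 with the olfactory bulb E libraries, against 0.62 with cortex E replicate 1 and 0.59 and 0.56 with the brainstem E libraries. Only these 2 libraries were checked in this way, and replicates correlated no better in some other groups, at 0.52 in cortex D and 0.56 in brainstem E. The 2 also hold the highest Fabp7 levels of cortex and brainstem, so leaving them out by itself widens the Fabp7 difference between regions. Both libraries kept their labels, and results on the members that rest on them are given with and without them. They are called at odds with their labels below as a short name for these correlations. Whether a label is wrong was not settled. Relative depth, taken as coverage divided by FPKM, was 0.0695 in brainstem E replicate 1 and 0.316 in olfactory bulb E replicate 1, against 1.17 to 4.08 elsewhere, and between 2105 and 10359 genes reached 1 FPKM per library. Of 12 astrocyte markers, 11 or 12 reached 1 FPKM in every lettered library, with a summed level of 250.1 to 3641 FPKM, against 7 to 12 in Neg with 98.4 to 524 FPKM.

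Fabp7 was one of the most abundant transcripts of the olfactory bulb libraries and was far lower in all but 2 of the cortex and brainstem libraries, those at odds with their labels. Its rank among all genes was between 1 and 3 in all 12 olfactory bulb libraries, where it made up 1.07% to 3.42% of the summed gene FPKM. In the 18 cortex and brainstem libraries of A to E other than the 2 above, it ranked between 27 and 2247 and made up 0.00835% to 0.267%. In the cortex and brainstem libraries of Neg it ranked between 265 and 6149.

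In population A, Fabp7 stood at 3442 and 1232 FPKM in olfactory bulb libraries, against 70.7 and 55.8 FPKM in cortex and 229.7 and 144.8 FPKM in brainstem. In population B it stood at 1929 and 1959 FPKM in olfactory bulb libraries, against 44.3 and 80.6 FPKM in cortex and 105.5 and 9.47 FPKM in brainstem. In population C it stood at 2541 and 1440 FPKM in olfactory bulb libraries, against 176.7 and 103.7 FPKM in cortex and 161.9 and 65.0 FPKM in brainstem. In these 3 populations both olfactory bulb libraries lay above all 4 others, and the ratio of means was 18.7 in A, 32.4 in B and 15.7 in C. The lowest olfactory bulb library stood 5.36-fold above the highest of the others in A, 18.3-fold in B and 8.15-fold in C. Of all genes tested, 25% had both olfactory bulb libraries of A above the other 4, 11.4% had so in B and 9.72% in C. Nothing is read from those shares, since the members were chosen for this contrast.

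In population D, Fabp7 stood at 2017 and 1667 FPKM in olfactory bulb libraries, against 140.8 and 5.59 FPKM in cortex and 227.2 and 3783 FPKM in brainstem. The value of 3783 FPKM, the highest of the series, belongs to the library labelled brainstem D replicate 2. The ratio of the olfactory bulb mean to the mean of the others was 1.77 with that library and 14.8 without it, and only without it did the olfactory bulb libraries lie above all others. In population E, Fabp7 stood at 574 and 2264 FPKM in olfactory bulb libraries, against 28.7 and 1795 FPKM in cortex and 57.2 and 40.5 FPKM in brainstem. The value of 1795 FPKM belongs to the library labelled cortex E replicate 2. The ratio of means was 2.95 with that library and 33.6 without it, and again only without it were the regions separate. In D and E, 8.41% and 3.05% of all genes tested had both olfactory bulb libraries above the other 4.

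In Neg, Fabp7 stood at 587 and 612 FPKM in olfactory bulb libraries, against 9.65 and 11.7 FPKM in cortex and 0.217 and 0.162 FPKM in brainstem. The ratio of means was 110.3, the widest of the 6 populations, and the groups did not overlap, as held for 30% of all genes tested. The brainstem Neg libraries had the fewest genes at 1 FPKM of the series, 2877 and 2105. Their nuclear FPKM summed to 24314 and 24130, against 57537 and 59915 in the olfactory bulb Neg libraries. The part of this in the ratio was not tested. In both brainstem Neg libraries the interval deposited with the estimate reached down to 0. They were the only libraries in which it did, so Fabp7 was above 0 beyond its own interval in 34 of 36 libraries. In bulk libraries, fewer cells of a type and less RNA per cell cannot be told apart.

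**Figure D1:**
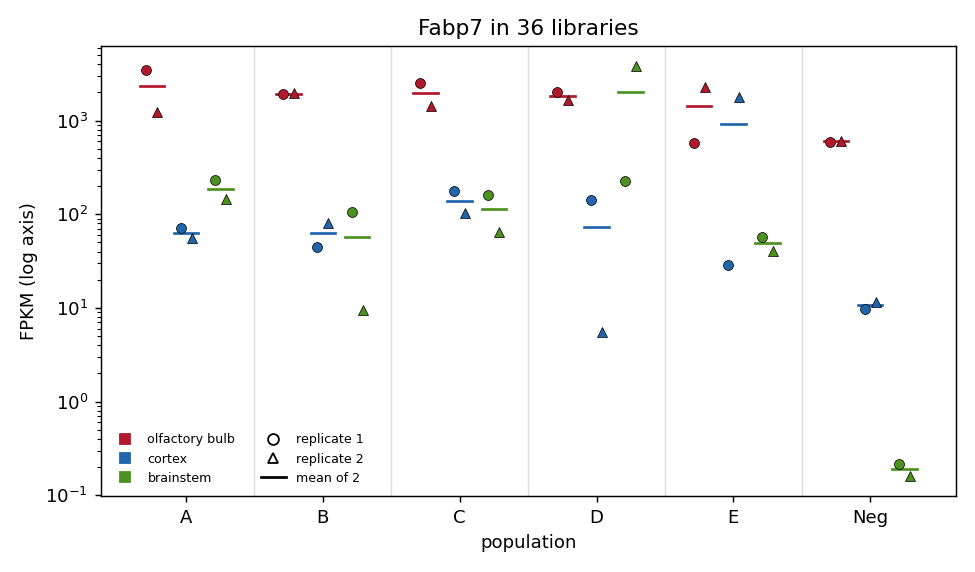
Fabp7 level in FPKM on a log axis for each of the 36 libraries, by population and, within it, with olfactory bulb at the left, cortex in the middle and brainstem at the right; circles are replicate 1, triangles replicate 2 and lines the mean of 2. The olfactory bulb libraries lie between 574 and 3442 FPKM, and among the other libraries only brainstem D replicate 2 at 3783 FPKM and cortex E replicate 2 at 1795 FPKM reach that range.

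On the log2(FPKM + 1) scale, the difference of the olfactory bulb from the mean of cortex and brainstem was 4.25 in A, 5.43 in B, 4.01 in C, 3.44 in D, 3.42 in E and 7.33 in Neg. Over A to E it was 4.11, or 4.61 without the 2 libraries that went against their labels, which also brought D to 4.46 and E to 4.90. The median of all genes tested was 0.16 over A to E and 0.56 in Neg. For Fabp5 the same difference was 0.15 over A to E, or 0.0033 without those 2, and 1.88 in Neg, and for Fabp3 it was -0.34 over A to E and 0 in Neg. Pooled within groups, the residual standard deviation of a library was 1.61 for Fabp7, 0.75 for Fabp5 and 0.48 for Fabp3 on this scale.

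**Figure D2:**
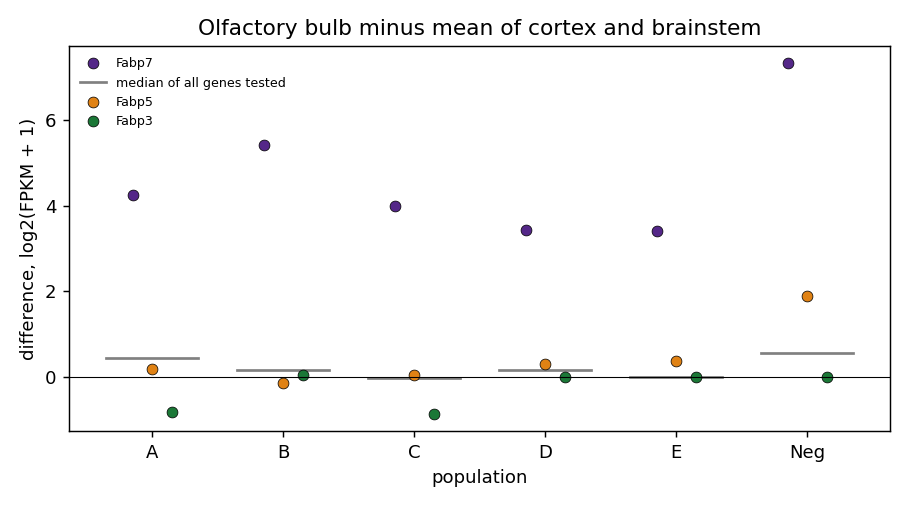
Difference of the olfactory bulb from the mean of cortex and brainstem on the log2(FPKM + 1) scale in each population, for Fabp7, Fabp5 and Fabp3, with the median of all genes tested as a grey line. Fabp7 lies between 3.42 and 7.33, while Fabp5 and Fabp3 lie between -0.86 and 0.38 in A to E.

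The order of the 18 group means of Fabp7 ran from olfactory bulb A, with 2337 ± 1563 FPKM (SD, n = 2), to brainstem Neg, with 0.189 ± 0.0387 FPKM (SD, n = 2). Of the 17 pairs of neighbours in that order, 14 overlapped. The 3 breaks lay between olfactory bulb Neg at 599.5 ± 17.3 FPKM and brainstem A at 187 ± 60.1 FPKM, between brainstem E at 48.9 ± 11.8 FPKM and cortex Neg at 10.7 ± 1.45 FPKM, and between cortex Neg and brainstem Neg (SD, n = 2 each). The 5 lettered olfactory bulb groups stood among the 7 highest, together with brainstem D and cortex E, and all neighbours among these overlapped. Without the 2 libraries at odds with their labels, the 6 olfactory bulb groups were the 6 highest, brainstem D was 7th with 227.2 FPKM and cortex E 16th with 28.7 FPKM, each from 1 library, and 13 of the 17 pairs overlapped.

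Markers of other cells that the olfactory bulb holds moved with Fabp7. The summed level of 8 markers of olfactory ensheathing glia, the cells that wrap olfactory axons, was 35.2 to 727 FPKM in olfactory bulb libraries with a median of 252, against 0 to 64.9 FPKM with a median of 7.63 in the other libraries without the 2 at odds with their labels. Those 2 had 541 FPKM in brainstem D replicate 2 and 195 FPKM in cortex E replicate 2. Of the 8 genes, 6 had both olfactory bulb libraries above the other 4 in 3 or more populations, as Fabp7 did, and 8.05% of all genes tested did so. No gene of the list was at 0 in all cortex and brainstem libraries, although the median of Foxd3 and Prss56 there was 0. The summed level of 8 neuroblast and interneuron progenitor markers was 22.8 to 98.7 FPKM in olfactory bulb libraries, against 0.849 to 47.2 FPKM in the other libraries without those 2, and 5 of the 8 genes separated in the same way. Of 8 neuron markers 4 did so, Gad1 and Syt1 in 4 populations and Syn1 and Snap25 in 3. Vtn of the pericyte and smooth muscle list did so in 4. Nefm, also a neuron marker, had both olfactory bulb libraries below the other 4 in 3 populations. So did 2 of 7 markers of mature oligodendrocytes, Mbp and Mobp. Pdgfra of oligodendrocyte precursors, Tyrobp of microglia and macrophages, Ly6c1 of endothelial cells and Ttr of choroid plexus were also below in 3. Of all genes tested, 0.501% were below in 3 populations or more. Of the 12 astrocyte markers, 0 separated in either direction in 3 populations or more. Their sum was 285 to 2749 FPKM in olfactory bulb libraries and 98.4 to 3641 FPKM in the others. The part of these cells in the Fabp7 levels was not tested.

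Among the genes whose pattern over the 36 libraries was most like that of Fabp7 were Afap1l2, with a Pearson correlation of 0.91 on log2(FPKM + 1), Plppr4 with 0.90, Hey2, a transcription factor downstream of Notch, with 0.90, and Npy, the precursor of neuropeptide Y, with 0.90. Without the 2 libraries at odds with their labels these values were 0.89 to 0.90. The libraries share scaling and region, so the correlations are a description. Npy is also on the list of ensheathing glia markers.

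Fabp5 was a low-level gene in these libraries, highest in population C and lowest in E and in the cortex and brainstem of Neg. It was between 0 and 13.8 FPKM in all 36 libraries with a median of 3.57 FPKM, against a median of 153 FPKM for Fabp7, and it was listed at 0 in 4 libraries. Population C had the highest levels. There Fabp5 stood at 13.6 and 6.53 FPKM in olfactory bulb libraries, against 9.82 and 13.8 FPKM in cortex and 8.81 and 5.98 FPKM in brainstem, with full overlap between regions. In A it stood at 3.80 and 4.95 FPKM in olfactory bulb libraries, against 4.30 and 1.05 FPKM in cortex and 4.66 and 7.01 FPKM in brainstem. In B it stood at 4.77 and 4.34 FPKM in olfactory bulb libraries, against 7.64 and 11.2 FPKM in cortex and 3.35 and 2.10 FPKM in brainstem.

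Population D was more uneven, with Fabp5 at 1.59 and 2.83 FPKM in olfactory bulb libraries, against 7.16 and 0 FPKM in cortex and 3.06 and 0.254 FPKM in brainstem. In E no library passed 1.42 FPKM, with 0.793 and 1.15 FPKM in olfactory bulb libraries, against 1.42 and 0 FPKM in cortex and 0 and 1.15 FPKM in brainstem. The olfactory bulb overlapped the other regions in each of A to E, with ratios of means between 0.751 in B and 1.51 in E. The ratio was 0.649 in D and 1.14 in E without the 2 libraries at odds with their labels. In Neg both olfactory bulb libraries lay above the other 4, as held for 30% of all genes tested. Fabp5 stood there at 4.73 and 3.86 FPKM in olfactory bulb libraries, against 0.553 and 0.339 FPKM in cortex and 0 and 1.02 FPKM in brainstem, a ratio of means of 8.99. All 17 pairs of neighbouring groups in the order of Fabp5 overlapped, or 15 of 17 without those 2 libraries.

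**Figure D3:**
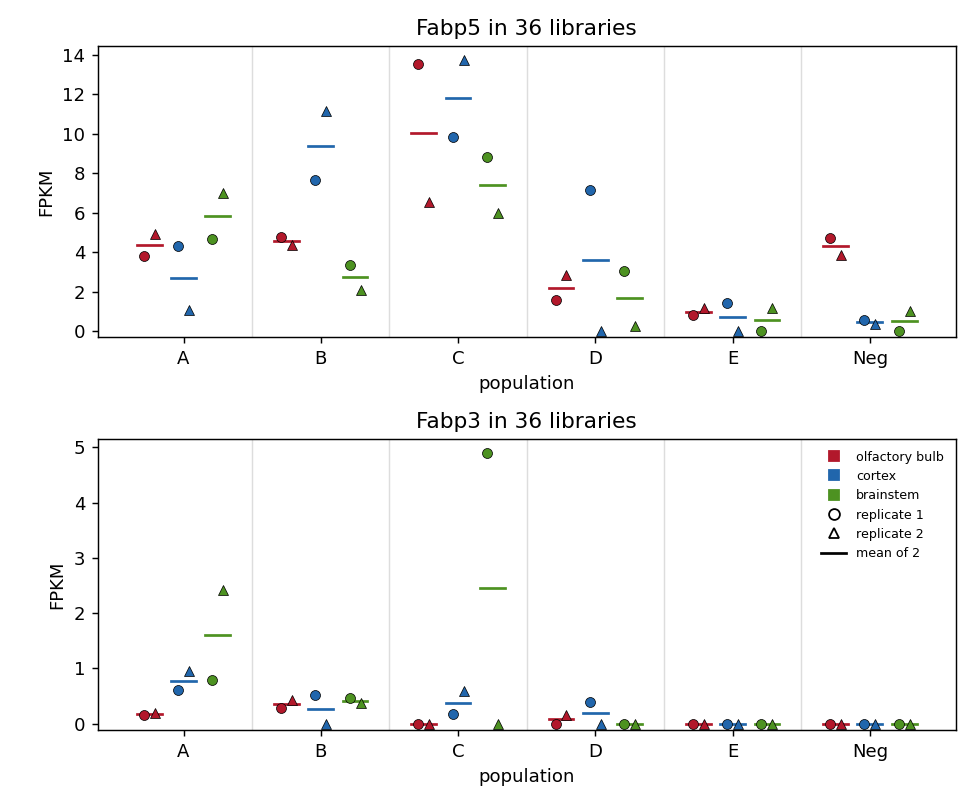
Fabp5 (top) and Fabp3 (bottom) levels in FPKM on linear axes for each of the 36 libraries, by population and region as marked, with circles for replicate 1, triangles for replicate 2 and lines for the mean of 2. Fabp5 is highest in the libraries of C, up to 13.8 FPKM, and Fabp3 reaches 1 FPKM only in brainstem A replicate 2 and brainstem C replicate 1.

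Each lettered population was compared with the mean of the other 4, over all regions, a contrast that the rule did not use. Fabp5 was higher in C, at 5.98 to 13.8 FPKM with a median of 9.31 over 6 libraries, against 0 to 11.2 FPKM with a median of 2.94 over the 24 libraries of the other lettered populations. The difference was 1.61 ± 0.35 (SE) on the log2(FPKM + 1) scale (limma, adjusted p = 0.0148), while the median of all genes was 0.39 and 7.51% of genes were called higher. Without the 2 libraries at odds with their labels it was 1.48 (adjusted p = 0.0190). The call was lost without olfactory bulb C replicate 1 (adjusted p = 0.10) and without brainstem C replicate 1 (adjusted p = 0.0588), and also after rescaling each library to the same sum (adjusted p = 0.476) or quantile normalization (adjusted p = 0.313). The astrocyte markers moved with it, with 9 of 12 called higher in C and a summed level of 1634 to 3473 FPKM there, against 250.1 to 3641 FPKM over all lettered libraries. Of the markers of other cells, 3 of 6 for oligodendrocyte precursors, 3 of 8 for microglia and macrophages, 2 of 4 tested for choroid plexus and ependyma and 1 of 6 for pericytes and smooth muscle were also called higher in C. These marker counts are from the main fit. After rescaling, 1 of all genes tested was called in C, and after quantile normalization 5 were. The part of these cells in the result was not tested.

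Fabp5 was lower in E, at 0 to 1.42 FPKM with a median of 0.970 over 6 libraries, against 0 to 13.8 FPKM with a median of 4.71 over the 24 libraries of the other lettered populations. The difference was -1.70 ± 0.35 (SE) on the log2(FPKM + 1) scale (limma, adjusted p = 0.000878). Most of the expression profile was lower in E, with 42.5% of all genes called lower and a median difference of -0.66. The call held when any single library was left out and without the 2 shallowest libraries, both of which belong to E (adjusted p = 0.0223), and was -1.56 without the 2 at odds with their labels (adjusted p = 0.00411). It did not hold after quantile normalization, where the difference was -0.84 (adjusted p = 0.180). All libraries of D and E carry numbers of the second of 2 series in their titles, and with a term for the series the difference was -1.42 (adjusted p = 0.168). In the main fit, 10 of 12 astrocyte markers were also called lower in E, as were 8 of 8 for microglia and macrophages. So were 5 of 6 for oligodendrocyte precursors. The part of all these cells in the Fabp5 result was not tested.

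Cufflinks placed Fabp5 on 1 transcript at a time. In 31 of the 32 libraries where it was above 0, a single transcript carried the whole estimate, and over all libraries the transcripts of 953, 950 and 780 bases held 83.3%, 14.8% and 1.94% of the gene's FPKM. In population C the 950-base transcript carried all of it in olfactory bulb replicate 2 and cortex replicate 1. When only the transcript with the highest mean was kept, the difference of C from the other lettered populations was 0.75 (limma, adjusted p = 0.333). That of E was -1.91 (adjusted p = 0.00626).

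Fabp7 was not called in any of these comparisons. Its difference was 0.19 ± 0.62 in A, -0.90 ± 0.62 in B, 0.26 ± 0.62 in C, 0.65 ± 0.62 in D and -0.19 ± 0.62 in E (SE, log2(FPKM + 1) scale; limma adjusted p between 0.347 and 0.999), and 0 of the 5 had an unadjusted p under 0.05. The signs in A, C, D and E were not stable to the choice of libraries or scale. Without the 2 libraries at odds with their labels, the differences were 0.60 in A, -0.49 in B, 0.67 in C, 0.22 in D and -1.005 in E, and none was called. Fabp5 was not called in A, B or D, where it differed by 0.27 ± 0.35, 0.61 ± 0.35 and -0.79 ± 0.35 (limma adjusted p between 0.250 and 0.999), with only D at an unadjusted p under 0.05. Without the 2 libraries at odds with their labels these were 0.15, 0.49 and -0.56, and none was called. The share of all genes called was 0% in A, 15.8% in B and 0.103% in D.

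Fabp3 was at the edge of detection. It was listed at 0 in 20 of 36 libraries, among them all 6 of E and all 6 of Neg, and it passed the filter only through brainstem C replicate 1 with 4.90 FPKM and brainstem A replicate 2 with 2.42 FPKM. In A it stood at 0.161 and 0.188 FPKM in olfactory bulb libraries, against 0.601 and 0.950 FPKM in cortex and 0.794 and 2.42 FPKM in brainstem. These were the only regions of a population that separated, with both olfactory bulb libraries below all 4 others, as held for 1.73% of all genes tested. In B it stood at 0.285 and 0.423 FPKM in olfactory bulb libraries, against 0.512 and 0 FPKM in cortex and 0.464 and 0.370 FPKM in brainstem.

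In C, Fabp3 was listed at 0 in both olfactory bulb libraries, against 0.174 and 0.584 FPKM in cortex and 4.90 and 0 FPKM in brainstem. In D it stood at 0 and 0.155 FPKM in olfactory bulb libraries, against 0.386 and 0 FPKM in cortex and 0 in both brainstem libraries. The interval deposited with the estimate excluded 0 in only 3 of 36 libraries, brainstem A replicate 2, brainstem B replicate 1 and brainstem C replicate 1. Differences below the width of these intervals were not detectable at this depth. None of the 7 comparisons called Fabp3, with differences between -0.47 ± 0.21 in E and 0.51 ± 0.21 in A (SE, log2(FPKM + 1) scale; limma adjusted p between 0.0713 and 0.999). At an unadjusted p under 0.05, limma would have called 2 of the 7, those of A and E. Nothing is read from them. Population A holds brainstem A replicate 2, through which Fabp3 passed the filter, and all 6 libraries of E are listed at 0. The share of all genes at that unadjusted level was not worked out.

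The lettered populations together were then compared with Neg, with regions weighted equally. Fabp7 was higher in A to E, at 5.59 to 3783 FPKM with a median of 169 over 30 libraries, against 0.162 to 612 FPKM with a median of 10.7 over 6 Neg libraries. The difference was 3.69 ± 0.61 (SE) on the log2(FPKM + 1) scale (limma, adjusted p = 0.000258), against a median of 0.50 for all genes, of which 20.4% were called and 20.2% were higher. It was called under all 9 other settings tried, with values between 2.71 and 4.41, and was 3.35 without the 2 libraries at odds with their labels. By region, without a test, the difference was 1.54 in the olfactory bulb, 2.82 in the cortex and 6.70 in the brainstem, or 2.23 in the cortex and 6.30 in the brainstem without those 2. In the olfactory bulb 9 of 10 lettered libraries lay above both Neg libraries, as did 9 of 10 in the cortex and 10 of 10 in the brainstem. Without those 2 libraries it was 8 of 9 in the cortex and 9 of 9 in the brainstem. The share of all genes that lay so was not worked out, so nothing is read from these counts. The brainstem Neg libraries had the fewest genes at 1 FPKM of the series, 2877 and 2105. Whether the difference depends on region was not tested.

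Fabp5 differed from Neg by 0.93 ± 0.35 (limma, adjusted p = 0.0523), which missed the threshold. The difference was 0.61 after rescaling (limma, adjusted p = 0.703) and 0.26 after quantile normalization (limma, adjusted p = 0.747). Without the 2 libraries at odds with their labels it was 1.03 (adjusted p = 0.0305). By region the difference was -0.22 in the olfactory bulb, 1.65 in the cortex and 1.37 in the brainstem, or 1.78 in the cortex and 1.54 in the brainstem without those 2. Fabp3 differed from Neg by 0.38 ± 0.21 (limma, adjusted p = 0.174). All 12 astrocyte markers were called higher in A to E than in Neg, where 20.2% of all genes were, with a median difference of 2.42. This marker count and the next are from the main fit. After rescaling, 3.51% of all genes were called in either direction, and after quantile normalization 6.04%. Of 8 markers of olfactory ensheathing glia, cells that Fabp7 also marks, 5 were called higher, with a median difference of 0.93 and a summed level of 0 to 727 FPKM with a median of 39.8 in A to E, against 0.0965 to 101.7 FPKM with a median of 1.85 in Neg. Other lists also had a higher median sum in A to E. It was 442 against 12.3 FPKM for choroid plexus and ependyma, 39.9 against 15.5 FPKM for oligodendrocyte precursors and 27.2 against 12.5 FPKM for endothelial cells. For neuroblasts and interneuron progenitors, whose markers also moved with Fabp7 by region, it was 17.8 against 5.96 FPKM. For microglia and macrophages it was 86.4 against 56.3 FPKM, for pericytes and smooth muscle 36.8 against 19.4 FPKM and for cycling cells 0.601 against 0.521 FPKM. The median sum was lower for mature oligodendrocytes (2599 against 4127 FPKM), neurons (160 against 171 FPKM) and blood cells (32.3 against 36.8 FPKM). The part of any of these lists in the Fabp7 difference was not tested.

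Cortex and brainstem were compared over A to E as the region contrast that the rule did not name. None of the members was called by limma, and 0 had an unadjusted p under 0.05. The difference was -0.59 ± 0.61 for Fabp7, 0.30 ± 0.35 for Fabp5 and -0.26 ± 0.21 for Fabp3 (SE, log2(FPKM + 1) scale; limma adjusted p between 0.727 and 0.839), with 1.75% of all genes called. Fabp7 stood at 5.59 to 1795 FPKM with a median of 75.6 in 10 cortex libraries, against 9.47 to 3783 FPKM with a median of 125.1 in 10 brainstem libraries. Without the library in each region that went against its label, the difference was -0.78 for Fabp7 and 0.26 for Fabp5, and the highest Fabp7 levels were 176.7 FPKM in cortex and 229.7 FPKM in brainstem.

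Genes that act with fatty acid binding proteins were taken from 6 lists with 64 genes, of which 54 were tested. The lists were written with earlier results of these libraries known and are described by counts. Against Neg, 34 of the 54 were called higher in A to E and 0 lower, where 20.2% of all genes were called higher. After rescaling 12 were called higher, and after quantile normalization 15, where 3.51% and 6.04% of all genes were called in either direction. Leaving out the 2 libraries at odds with their labels, 35 were called higher. Among 11 other intracellular lipid binding proteins, Crabp2, which carries retinoic acid, differed by 0.21 ± 0.14 and was not called (limma, adjusted p = 0.270). Crabp2 does not speak for the whole list, since not every tested gene of it is named here. Fabp4 of adipocytes, Fabp1 of liver, Fabp9 and Fabp12 were listed at 0 in all 36 libraries. Pmp2, the myelin member of the family, reached at most 0.189 FPKM.

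Of 12 tested genes of fatty acid uptake and activation, 6 were called higher (4 on the rescaled and 5 on the quantile scale), with a median difference of 1.26. The largest were Acsbg1, an acyl-CoA synthetase, at 2.79 ± 0.53, Slc27a1, a fatty acid transporter, at 2.70 ± 0.52, Dbi, the acyl-CoA binding protein, at 2.57 ± 0.46, and Acsl6, a synthetase of polyunsaturated fatty acids, at 2.33 ± 0.40 (SE; limma adjusted p between 0.000421 and 0.00115). Of 11 genes of fatty acid synthesis and desaturation, 9 were called higher (6 on the rescaled and 7 on the quantile scale), with a median of 2.12. Fads2 and Fads1, the desaturases of polyunsaturated fatty acids, differed by 2.86 ± 0.37 and 2.78 ± 0.43, the elongase Elovl5 by 2.73 ± 0.44 and Srebf1, a transcription factor for lipid synthesis, by 2.47 ± 0.44. Of 12 genes of fatty acid oxidation, 9 were higher with a median of 1.39, led by Acadvl, Hadha and Cpt1a at 1.76, 1.63 and 1.61, but 0 were called after rescaling or quantile normalization.

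Among 6 nuclear receptors that bind lipids or pair with those that do, 2 were called higher, Ppard at 1.76 ± 0.37 and Ppara at 0.84 ± 0.24 (0 on the rescaled and 1 on the quantile scale). Among 11 regulators of Fabp7 in neural progenitors, 7 were called higher (2 on the rescaled and 2 on the quantile scale), with a median of 1.29. The largest were Sox9, a glial fate factor, at 1.94 ± 0.47, the Notch receptor Notch2 at 1.86 ± 0.34, and its targets Hes5 at 1.64 ± 0.38 and Hes1 at 1.55 ± 0.39. Nfix and Nfib, of the family whose motif stands in the Fabp7 window shown above, were among the 7, at 1.5 ± 0.39 and 1.07 ± 0.35. Nfia at 0.73 ± 0.34 and Rbpj at 0.18 ± 0.26 were not called (limma, adjusted p = 0.114 and 0.604).

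**Figure D4:**
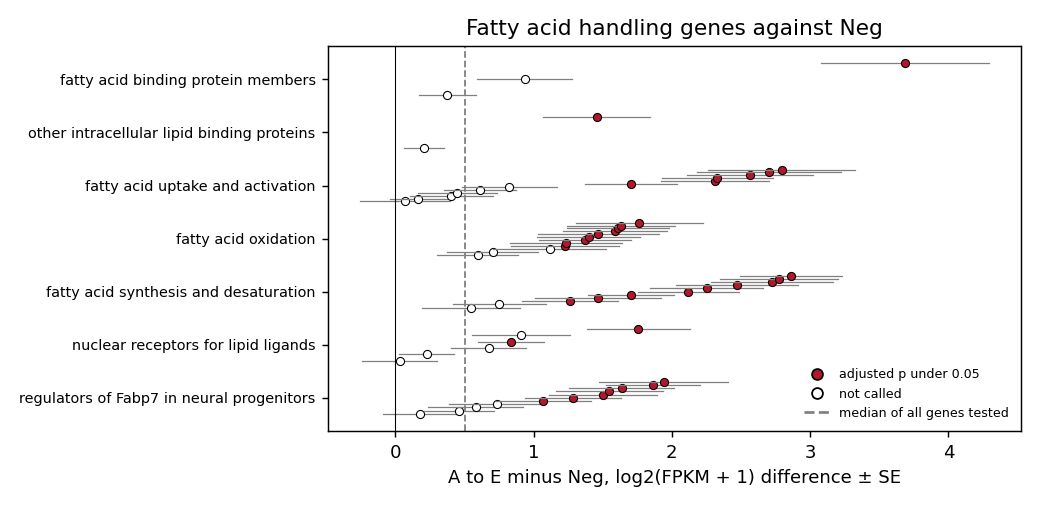
Difference of A to E from Neg on the log2(FPKM + 1) scale, with its standard error as a line, for the members and the tested genes of 6 lists; filled points have an adjusted p under 0.05, and the dashed line is the median of all genes tested at 0.50. Fabp7 at 3.69 lies beyond every gene of the lists, the largest of which is Fads2 at 2.86.

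Between lettered populations, 11 genes of the lists were called higher in B, where 15.4% of all genes were, led by Slc27a1 at 2.01 ± 0.53 and Sox9 at 1.66 ± 0.48, and 14 in C, where 7.51% of all genes were, led by Acsbg1 at 1.85 ± 0.54. In E, 33 were called lower and 0 higher, where 42.5% of all genes were lower, led by Slc27a1 at -3.12 ± 0.53 and Fads2 at -2.51 ± 0.38. After rescaling, 1 was called higher and 1 lower in B, 0 in C, and 1 higher and 9 lower in E, where 4.71%, 0.00736% and 22.1% of all genes were called in either direction. Leaving out the 2 libraries at odds with their labels, 11 were called higher in B and 12 in C, and 36 lower in E. In A, in D and between cortex and brainstem, limma called 0 of the 54, with 2, 2 and 7 at an unadjusted p under 0.05 in those 3 comparisons. The share of all genes at that unadjusted level was not worked out, so nothing is read from these counts.

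By region, the lists stood near the background. Of the 64 genes, 4 had both olfactory bulb libraries above the other 4 in 3 populations or more, Notch2, Pax6, Pparg and Elovl6, each in 3, as did 8.05% of all genes tested, and Acsl3 had both below the other 4 in 3. None of the 64 was above in 4 populations, where Fabp7 stood with 2.61% of all genes tested. Pax6, a transcription factor of neural progenitors and of olfactory bulb interneurons, was at 1.22 to 7.29 FPKM in olfactory bulb libraries, against 0 to 12.2 FPKM in the others. Pparg was at 0 to 6.88 FPKM in olfactory bulb libraries, against 0 to 0.392 FPKM in the others without the 2 at odds with their labels, of which brainstem D replicate 2 had 2.61 FPKM. Nfia, at 8.05 to 46.3 FPKM in olfactory bulb libraries and 1.99 to 40.7 FPKM in the others, separated in no population.

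The other members' patterns were matched by other genes. Closest to Fabp5 were Sec14l2, a lipid transfer protein, with a Pearson correlation of 0.88 over the 36 libraries, and Usp2, Cnnm3, Psmb2 and Lgi4 with 0.86 each. After quantile normalization these values were 0.37 to 0.66. For Fabp3, at 0 in most libraries, the closest were Serpinb1b with 0.78, Hoxb3 with 0.77, Gm19345 and Abca4 with 0.74 and Slc28a3 with 0.71, which rest on the few libraries where it was above 0. After quantile normalization these were 0.29 to 0.73. Among the members themselves the correlation was 0.31 between Fabp7 and Fabp5, 0.40 between Fabp5 and Fabp3 and -0.02 between Fabp7 and Fabp3, or -0.011, 0.28 and -0.20 after quantile normalization, given as a description of these libraries.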

How the data were processed

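Total RNA of 36 mouse brain cell libraries was made into cDNA with random and oligo d(T) primers, which does not mark strand, per the labels' protocols. Base calls were converted with bcl2fastq 1.8.3, and TopHat, Cufflinks and mm10 are named, per the submitters' processing notes; the sources used here give no further versions. Each of the deposited tables holds FPKM with its interval and a coverage signal for 63241 transcripts, per the file headers. FPKM is scaled within each library, so a library led by few transcripts shows lower values for the rest.

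From these, transcripts were assigned by position, without strand, to GENCODE vM21 genes at an overlap score of at least 0.5 and a lead of 0.1, which placed 52551 (83.1%). Mitochondrial genes were left out, and FPKM were summed per gene. Genes that reached 1 FPKM in 2 libraries or more were fitted on log2(FPKM + 1) with limma 3.58.1 in R 4.3.3, as 18 group means with a variance trend and 18 residual degrees of freedom. Two-sided p-values were adjusted by the Benjamini-Hochberg method over 13580 genes and called under 0.05. The fit was tested on simulated data. Depth is known only in relative terms, so no counts were modelled.

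The members and lists were chosen with earlier results of these data known. Named genes were the members, the 5 genes most correlated with each, up to 4 called genes of each list with the largest differences against Neg, and up to 2 in other comparisons; Fabp relatives, regulators beyond these and genes named by region were added after their values were seen. Some genes that this rule names are not reported here. Alternatives were rescaling to a sum of 1000000, quantile normalization, a pseudocount of 0.1, no filter, each gene's leading transcript alone, array weights, a term for the number series of the library titles, and leaving out libraries.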

Additional observations from a re-analysis of the deposited data

Results flagged for a closer look

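In 41 sets of 4 to 10 libraries of a member, the highest or lowest library was set against the others by Dixon's ratio, and 4 sets had a library beyond the 95% critical value, which chance gives in about 1 of 20 sets. Fabp7 in the library labelled cortex E replicate 2, at 1795 FPKM, stood apart from the other 3 cortex and brainstem libraries of E, at 28.7 to 57.2 FPKM. Fabp7 in the library labelled brainstem D replicate 2, at 3783 FPKM, stood apart from the other 9 brainstem libraries of A to E, at 9.47 to 229.7 FPKM. In both libraries Npy, at 147 and 440 FPKM, was also above its highest level of 46.3 FPKM in the remaining cortex and brainstem libraries. Fabp3 in brainstem C replicate 1, at 4.90 FPKM, stood apart from the other 5 libraries of C, at 0 to 0.584 FPKM. Fabp3 in cortex D replicate 1, at 0.386 FPKM, stood apart because the other 3 cortex and brainstem libraries of D are listed at 0.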

How the results depend on the processing

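Fabp7 in the olfactory bulb against the other regions kept its direction in every fit made for it, between 3.82 and 4.87 on the log2(FPKM + 1) scale over A to E. That contrast was not run without the filter, with array weights or with the number-series term. Against Neg, Fabp7 stayed called (2.71 to 4.41, adjusted p at most 0.0131). Fabp5 against Neg became called with array weights (0.93), without the 2 shallowest libraries (0.98) and without the 2 libraries at odds with their labels (1.03), and ranged from 0.77 to 1.10 with single libraries left out, called in 8 of 36 such fits (adjusted p from 0.00971 without cortex D replicate 2 to 0.170). The same difference was smaller and not called after rescaling (0.61), after quantile normalization (0.26) and with the leading transcript alone (0.84). Fabp5 in C was no longer called after rescaling (1.78), quantile normalization (1.12), a pseudocount of 0.1 (2.31), the leading transcript alone (0.75) or a number-series term (1.32), and ranged from 1.45 to 1.77 with single libraries left out. Fabp5 in E was not called after quantile normalization (-0.84) or a number-series term (-1.42). Uncalled values changed sign for Fabp7 in A (-0.12, number series), in C (-0.46 rescaled, -0.36 quantile, -0.65 number series) and in E (1.03 rescaled, 1.30 quantile, 0.72 number series, 0.061 without the 2 shallowest libraries), for Fabp3 in B (-0.017 quantile) and for Fabp5 in cortex minus brainstem (-0.12, leading transcript). Fabp3 in E became called after rescaling (-1.76) and with a pseudocount of 0.1 (-1.75). With single libraries left out, Fabp7 ranged from -0.062 to 0.43 in A, -0.089 to 1.39 in D, -1.17 to 0.80 in E and -1.18 to 0.00033 in cortex minus brainstem. Fabp5 ranged from -1.30 (called, without cortex D replicate 1) to -0.29 in D and from -0.0048 to 0.60 in cortex minus brainstem. Fabp3 ranged from 0.36 to 0.46 against Neg, 0.18 to 0.67 in C and -0.58 to -0.45 in E, each called only without brainstem C replicate 2, and from -0.064 to 0.14 in B; without brainstem C replicate 1 or brainstem A replicate 2 it failed the filter. The causes were not tested.

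Of all genes, 2765 were called against Neg, with 476 after rescaling, 820 after quantile normalization, 1496 from leading transcripts and 5446 with array weights. In C 1021 were called, with 1 after rescaling, 5 after quantile normalization, 137 with a pseudocount of 0.1, 625 unfiltered, 2931 with array weights and 0 with the series term. In E 5784 were called, with 3002 after rescaling, 1120 after quantile normalization, 2652 without the 2 shallowest libraries and 135 with the series term. In B 2139 were called, with 640 after rescaling, 833 after quantile normalization, 1330 with a pseudocount of 0.1 and 729 with the series term. In A 0 were called, with 13 unfiltered and 1 with the series term. In D 14 were called, with 0 to 8 under 7 of the settings, and in cortex minus brainstem 238, with 144 under array weights. No paired analysis was possible because the labels give no replicate numbers. Nothing calls the number series a batch, and its second part holds all libraries of D and E. At this depth the deposited interval of Fabp3 excluded 0 in only 3 of 36 libraries.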
